A study of Homo sapiens with 4 samples.

Results

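The genes described here are 10 cell surface receptors and secreted partners of the Wnt pathway, measured in H1 cells, an established human embryonic stem cell line, on day 2 of directed differentiation toward blood. They were found in the expression table by gene symbol and comprise the co-receptors LRP5 and LRP6, the noncanonical receptors ROR1, ROR2, RYK and PTK7, the R-spondin receptors LGR4, LGR5 and LGR6, and the R-spondin RSPO3. Each symbol matched 1 of the 58365 gene rows of the expression table, and all 10 genes are protein-coding in GENCODE v29. Genes that overlap a member in position, such as ROR1-AS1 within ROR1, reached at most 0.459 FPKM in any library, and the kit did not keep strand. All cells received activin A at 40 ng/ml and BMP4 at 50 ng/ml for 2 days to induce mesoderm, as the sample labels state, while the study's methods give these concentrations the other way round. The DMSO group (2 libraries) received no inhibitor, and the IWP2 group (2 libraries) received IWP2, a small molecule that blocks Porcupine, the enzyme that attaches the lipid that Wnt proteins need for secretion. The dose of IWP2 is not given in the sources used here, and the labels do not say whether the libraries of a group came from separate cultures, so p-values measure only the spread between these libraries, which may be technical.

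A secreted Wnt protein binds a Frizzled receptor together with LRP5 or LRP6 on the receiving cell, and the phosphorylated tail of the LRP protein then draws Axin away from the complex that destroys β-catenin. R-spondins bind LGR4, LGR5 or LGR6 and clear the ubiquitin ligases ZNRF3 and RNF43, which otherwise remove Frizzled and LRP proteins from the membrane, so they raise the response to Wnt. ROR1, ROR2, RYK and PTK7 are single-pass receptors with kinase-like domains that act in β-catenin-independent Wnt signaling and in cell movements such as those of gastrulation. The comparison asks what happened to the mRNA of these receptors when Wnt secretion was blocked during mesoderm induction.

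The cells of the 2 groups differed in identity at day 2. All 7 genes of a primitive streak and mesoderm list fell with IWP2, including APLNR, the apelin receptor, with 380 and 512 FPKM in the DMSO libraries against 2.97 and 2.39 FPKM in the IWP2 libraries. FPKM is the number of sequenced fragments per kilobase of transcript, scaled to the number of fragments in the library. SOX2, a pluripotency factor, was at 0.193 and 0.174 FPKM against 35.6 and 36.1 FPKM with IWP2, and 3 of 5 pluripotency genes were called higher. SOX2 and APLNR had the largest log2 fold changes of their lists. POU5F1 was at 751 and 571 FPKM against 1854 and 1844 FPKM with IWP2, and NANOG and LIN28A were not called. T, of the streak list, was at 21.6 and 18.5 FPKM against 9.40 and 10.4 FPKM. Of the other cell types checked, definitive endoderm had 3 of 4 genes called lower, and amnion or trophectoderm had 2 called higher and 1 lower of 5 tested. SOX17, the endoderm gene not called, was at 155 and 104 FPKM in the DMSO libraries against 79.7 and 94.9 FPKM with IWP2. Over all genes tested, 7.35% were called lower and 5.81% higher. These marker lists are short, so their counts are descriptive. Of 4 neural ectoderm markers, OTX2 was called lower, from 55.8 and 61.2 FPKM to 2.19 and 2.95 FPKM, PAX6 was not called, and SOX1 and ZIC1 were under the filter. Of 5 blood and endothelium markers, 4 were under the filter on low values and CD34, at 1.79 to 5.43 FPKM, was not called. These are bulk libraries, so fewer cells of a type and less RNA per cell cannot be told apart in any value given here, and the part of this shift in identity in the receptor changes was not tested.

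With IWP2, the receptor genes moved unequally. LGR5 fell by a factor of 271 in FPKM, RSPO3 by 15.9, ROR2 by 3.46, LGR4 by 2.09 and ROR1 by 1.80, while LRP5 rose 1.41-fold. LRP6, PTK7 and RYK were lower on average without passing the test, and LGR6 was barely detected in either group. Across all 15980 genes with a mean of at least 0.5 FPKM, limma called 13.2% at a Benjamini-Hochberg adjusted p under 0.05, 7.35% lower and 5.81% higher. Of the 9 members tested, 5 were called lower and 1 higher, with a median log2 fold change of -0.755 against -0.0144 over all genes tested. The members were chosen with earlier results of these data known, so neither the count nor the median tests them as a set. LGR5 and RSPO3 reached the filter through their DMSO values alone. All 9 tested members had groups that did not overlap, 8 of them lower with IWP2, but this held for 58.6% of all genes tested in either direction and 31% in the lower direction. With 2 libraries against 2, an exact two-sided permutation test of a single gene cannot give a p under 0.333, so the p-values below come from the limma fit across all genes, on log2(FPKM + 1), a scale that understates the change of low genes.

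**Figure D1:**
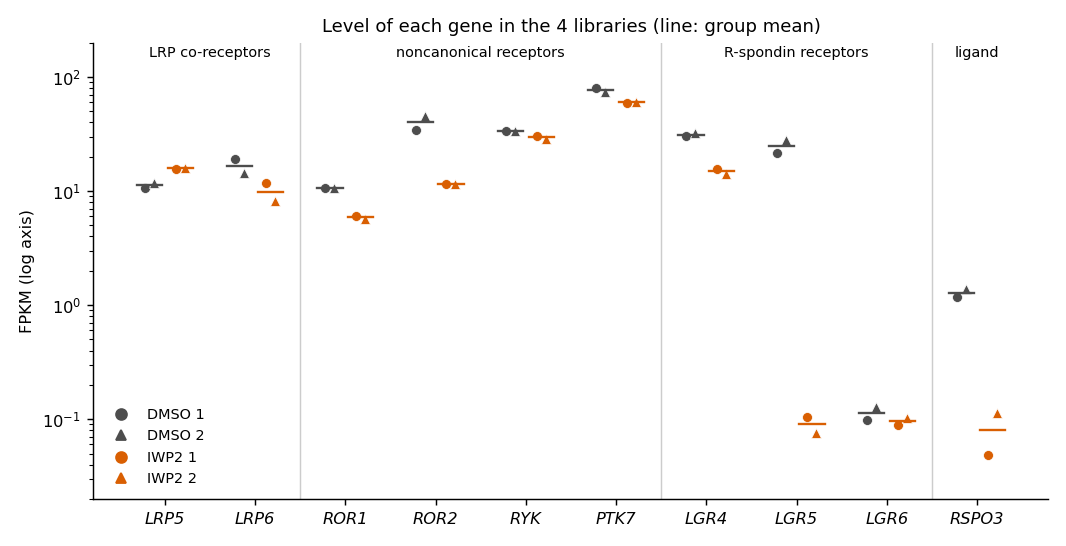
FPKM on a log axis of the 10 genes in each library, circles for replicate 1 and triangles for replicate 2, DMSO in grey and IWP2 in orange, with lines at the group means. LGR5 and RSPO3 dropped to about the level of LGR6 with IWP2, and LRP5 is the gene whose IWP2 points sit above its DMSO points.

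**Figure D2:**
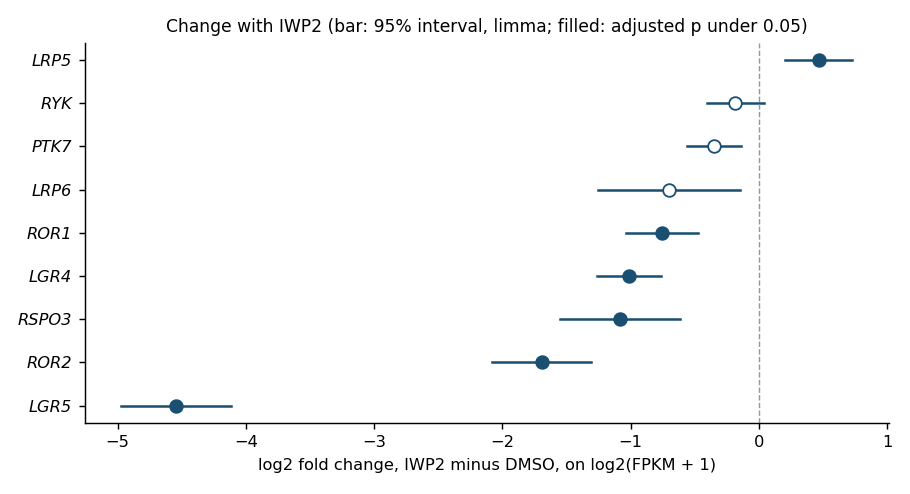
Log2 fold change, IWP2 minus DMSO, of the 9 tested genes on log2(FPKM + 1), with 95% intervals from limma and filled points at an adjusted p under 0.05. LGR5 lies at -4.54, ROR2 at -1.69 and LRP5 at 0.47.

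The promoters of the members called lower, and of LRP5, called higher, are shown where an entry was found. Shared regulation of these genes was not tested. RefSeq entries on GRCh38.p14 were found for 8 of the 10 members, and LGR5 and LRP6 are only named. The 250 bases before the start site are given 5′ to 3′ on the strand of the gene, for ROR2 at chr9:91950229-91950478 (minus strand), LGR4 at chr11:27472791-27473040 (minus strand), ROR1 at chr1:63773767-63774016 (plus strand), RSPO3 at chr6:127118421-127118670 (plus strand) and LRP5 at chr11:68312341-68312590 (plus strand). Start sites are those of RefSeq, and the RSPO3 window runs past the GENCODE v29 start of that gene, at 127118604. Capitals mark matches to any of the motifs searched on both strands.
LGR4: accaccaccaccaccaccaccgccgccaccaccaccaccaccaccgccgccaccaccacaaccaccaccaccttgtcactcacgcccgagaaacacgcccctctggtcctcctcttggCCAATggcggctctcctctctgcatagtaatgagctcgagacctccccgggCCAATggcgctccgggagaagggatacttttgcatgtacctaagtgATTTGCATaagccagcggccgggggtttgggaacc
ROR1: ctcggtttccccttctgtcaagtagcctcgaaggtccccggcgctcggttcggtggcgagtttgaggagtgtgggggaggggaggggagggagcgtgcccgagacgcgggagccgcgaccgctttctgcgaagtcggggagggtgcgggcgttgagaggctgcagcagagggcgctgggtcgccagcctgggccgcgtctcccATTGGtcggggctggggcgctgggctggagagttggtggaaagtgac
ROR2: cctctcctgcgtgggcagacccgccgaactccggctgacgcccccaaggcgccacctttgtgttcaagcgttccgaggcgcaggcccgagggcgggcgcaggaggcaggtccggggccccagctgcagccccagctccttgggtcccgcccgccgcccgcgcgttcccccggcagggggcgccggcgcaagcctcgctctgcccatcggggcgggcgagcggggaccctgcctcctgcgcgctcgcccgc
RSPO3: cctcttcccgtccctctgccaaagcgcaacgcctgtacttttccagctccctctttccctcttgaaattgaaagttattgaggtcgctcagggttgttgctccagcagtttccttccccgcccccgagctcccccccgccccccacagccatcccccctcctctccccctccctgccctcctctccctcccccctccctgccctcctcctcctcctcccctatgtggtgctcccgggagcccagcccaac
LRP5: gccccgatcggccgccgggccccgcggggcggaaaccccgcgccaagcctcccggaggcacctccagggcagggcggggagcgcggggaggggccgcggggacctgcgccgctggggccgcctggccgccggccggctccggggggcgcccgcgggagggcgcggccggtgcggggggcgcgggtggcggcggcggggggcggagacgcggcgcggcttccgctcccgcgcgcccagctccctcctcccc

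The motifs were the TCF/LEF site of the β-catenin partners (CTTTGAA or CTTTGAT), the octamer bound by POU factors (ATGCAAAT), the E-box bound by SNAI1 (CAGGTG) and the general CCAAT box (CCAAT), and none of them overlapped another match in these promoters. LGR4 held an octamer on the strand opposite to the one printed, from 35 to 28 bases before the start, which 1.63% of the 35116 promoter entries of the same length also held. LGR4 also held 2 CCAAT boxes, on the strand printed, and ROR1 held 1, on the opposite strand, against 32% of all entries with at least 1. No match to the TCF/LEF site or the E-box was found in the 5 windows, and 5.94% and 17.5% of all entries held them. At such shares 5 windows are too few for an absence to be read as a result, and LGR5 had no window. The LRP5 window was 87.2% G and C, that of ROR2 78%, ROR1 69.2%, RSPO3 64.8% and LGR4 62%. Over all entries the median was 58% and the 90th percentile 75.2%, so the windows of LRP5, which rose, and ROR2, which fell, were both above it.

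The largest fall among the members was that of the R-spondin receptor LGR5. LGR5, a receptor known as a stem cell marker of the gut and as a Wnt target gene (chr12:71439770-71586310 on GRCh38), was at 21.5 and 27.8 FPKM in the DMSO libraries and at 0.105 and 0.0763 FPKM in the IWP2 libraries. Every DMSO library was far above both IWP2 libraries, and the log2 fold change was -4.54 ± 0.17 (SE, adjusted p = 0.000439). From the steps between low values, about 1999 and 2295 fragments lay behind the DMSO values and about 10.7 and 6.76 behind the IWP2 values, which gives a ratio of 266 with a 95% interval of 171 to 471 (exact binomial, counting error only). LGR5 passed the threshold under all 13 alternative settings, with a highest adjusted p of 0.041.

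LGR4, the more widely expressed receptor of the family (chr11:27365961-27472775), was at 30.2 and 32.0 FPKM in the DMSO libraries and at 15.6 and 14.2 FPKM in the IWP2 libraries. The groups were well apart, with a log2 fold change of -1.01 ± 0.10 (SE, adjusted p = 0.00523). Its adjusted p was 0.0616 without DMSO replicate 2, 0.0831 without IWP2 replicate 1 and 0.0933 without IWP2 replicate 2. LGR6 (chr1:202193901-202319781) was at 0.0978 and 0.129 FPKM in the DMSO libraries and at 0.0890 and 0.103 FPKM in the IWP2 libraries, about 7.01 to 8.24 fragments per library. Its groups overlapped, it was under the filter, and a difference between the groups was not detectable at this depth.

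LGR4 and LGR5 shared the family's mRNA in the DMSO libraries, whereas LGR4 made up nearly all of it with IWP2. LGR5 was 41.5% and 46.3% of the summed LGR4, LGR5 and LGR6 FPKM in the DMSO libraries and 0.668% and 0.529% in the IWP2 libraries. The summed level went from 55.9 ± 5.75 FPKM (SD, n = 2) to 15.1 ± 0.956 FPKM (SD, n = 2), 0.27 of the DMSO level.

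RSPO3 (chr6:127118604-127197765), a secreted ligand of these receptors with roles in vessel and heart development, was at 1.18 and 1.39 FPKM in the DMSO libraries and at 0.0487 and 0.113 FPKM in the IWP2 libraries. The gene was low even in the DMSO libraries, with about 64.3 and 67.3 fragments, against about 2.9 and 5.85 with IWP2. The groups did not overlap, with a log2 fold change of -1.08 ± 0.18 (SE, adjusted p = 0.0237), and the ratio of the estimated fragments was 16.3 with a 95% interval of 8.13 to 35.5. The adjusted p rose to 0.0591 with no filter on low values, and leaving out 1 library gave 0.0644 (DMSO replicate 1), 0.0756 (DMSO replicate 2), 0.143 (IWP2 replicate 1) or 0.133 (IWP2 replicate 2).

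RSPO4 and the ligases that R-spondins act on did not pass the test. RSPO4 was at 2.18 and 2.13 FPKM in the DMSO libraries and at 2.38 and 2.18 FPKM in the IWP2 libraries, which made it the most abundant R-spondin in both groups. RSPO1 and RSPO2 were under the filter and were not tested. RSPO1 was at no more than 0.0804 FPKM. RSPO2 was at 0.349 and 0.326 FPKM in the DMSO libraries and at 0.195 and 0.0321 FPKM in the IWP2 libraries. ZNRF3, which removes Frizzled and LRP proteins from the membrane, was at 5.66 and 5.97 FPKM against 7.04 and 6.49 FPKM with IWP2, a log2 fold change of 0.19 with a 95% interval of -0.12 to 0.49. Its relative RNF43 was at 1.99 and 1.03 FPKM against 0.955 and 1.45 FPKM, with an interval of -0.83 to 0.49, so a change of moderate size in RNF43 lies within the error.

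Among the noncanonical receptors, the ROR genes fell and the others did not pass the test. ROR2 (chr9:91563091-91950162), a receptor for WNT5A with roles in limb and axis growth, was at 34.3 and 45.6 FPKM in the DMSO libraries and at 11.5 and 11.6 FPKM in the IWP2 libraries. The DMSO libraries differed from each other by more than the IWP2 libraries did, and the log2 fold change was -1.69 ± 0.15 (SE, adjusted p = 0.00447). Its adjusted p was 0.0606 with no filter on low values, 0.0951 without IWP2 replicate 1 and 0.0965 without IWP2 replicate 2.

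ROR1 (chr1:63774022-64181498), its close relative, was at 10.6 and 10.7 FPKM in the DMSO libraries and at 6.03 and 5.74 FPKM in the IWP2 libraries. The spread within each group was small beside the gap, with a log2 fold change of -0.75 ± 0.11 (SE, adjusted p = 0.0151). The call was lost with no filter on low values (adjusted p = 0.0606), without DMSO replicate 1 (0.0842), without DMSO replicate 2 (0.0945), without IWP2 replicate 1 (0.141) and without IWP2 replicate 2 (0.157). ROR2 stood at 3.24 and 4.28 times the FPKM of ROR1 in the DMSO libraries and at 1.91 and 2.01 times with IWP2, so the ratio between the ROR genes did not overlap between the groups.

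PTK7 (chr6:43076268-43161719), a pseudokinase of planar cell polarity, was the most abundant member in every library, at 79.7 and 74.2 FPKM in the DMSO libraries and at 59.4 and 60.9 FPKM in the IWP2 libraries. The groups did not overlap, but the log2 fold change of -0.35 ± 0.08 (SE) had an adjusted p of 0.0538, just above the threshold, and of 0.0426 after scaling to TPM. RYK (chr3:134065303-134250744), a Wnt-binding pseudokinase, was at 33.7 FPKM in both DMSO libraries and at 30.6 and 28.6 FPKM in the IWP2 libraries. Its log2 fold change was -0.18 with a 95% interval of -0.40 to 0.04 (adjusted p = 0.244), the smallest change among the members tested.

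ROR2 had 24.7% ± 4.32 (SD, n = 2) of the summed FPKM of the noncanonical receptors in the DMSO libraries and 10.8% ± 0.1 (SD, n = 2) with IWP2. PTK7 and RYK together made up the larger part in every library. The summed level was 158 and 164 FPKM in the DMSO libraries against 108 and 107 FPKM in the IWP2 libraries, and much of this difference lay in ROR2 and PTK7.

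The LRP co-receptors had opposite signs. LRP5 (chr11:68312609-68449275), known for its role in bone mass, was at 10.7 and 11.8 FPKM in the DMSO libraries and at 15.7 and 16.1 FPKM in the IWP2 libraries. Both IWP2 libraries were above both DMSO libraries, with a log2 fold change of 0.47 ± 0.10 (SE, adjusted p = 0.0462), close to the threshold. The adjusted p was 0.0691 with limma without the trend, 0.0954 with no filter, 0.076 after scaling to TPM, 0.139 without DMSO replicate 1, 0.11 without DMSO replicate 2, 0.232 without IWP2 replicate 1 and 0.257 without IWP2 replicate 2. The direction was the same in each of these.

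LRP6 (chr12:12116025-12267012), the co-receptor whose loss is the more severe in the mouse embryo, was at 19.0 and 14.3 FPKM in the DMSO libraries and at 11.7 and 8.11 FPKM in the IWP2 libraries. The groups did not overlap, but the log2 fold change of -0.70 ± 0.22 had the largest SE of the members tested and did not pass (adjusted p = 0.106). The summed LRP5 and LRP6 level overlapped between the groups, at 29.7 and 26.1 FPKM in the DMSO libraries against 27.4 and 24.2 FPKM in the IWP2 libraries. The share of LRP5 in that sum was 36.1% and 45.2% in the DMSO libraries and 57.3% and 66.5% in the IWP2 libraries, so LRP6 was the more abundant co-receptor in both DMSO libraries and LRP5 in both IWP2 libraries.

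**Figure D3:**
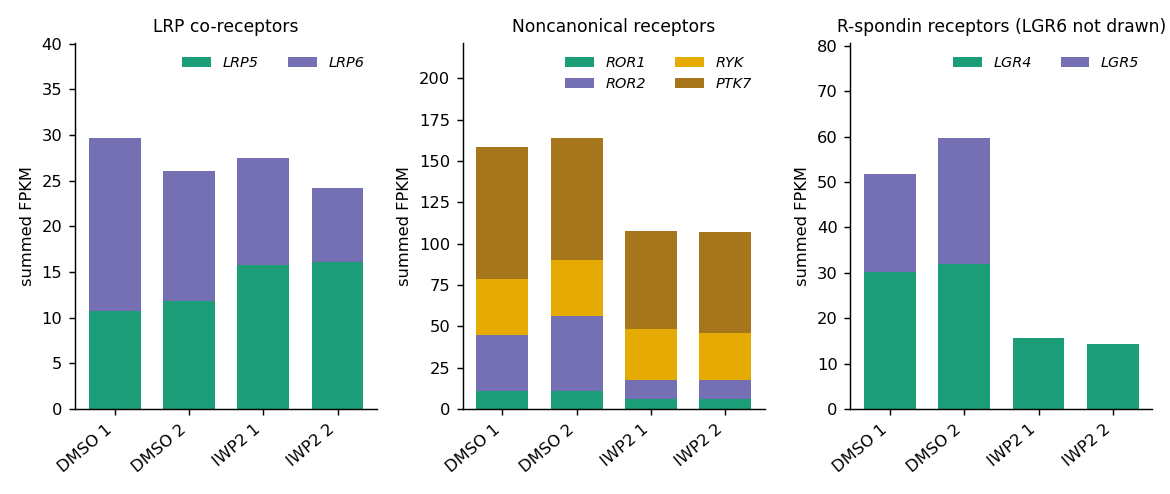
Summed FPKM of each kind of receptor in the 4 libraries, from 0, with 1 color per gene; LGR6, at most 0.129 FPKM, is too low to draw. The LRP bars keep a similar height and shift toward LRP5 with IWP2, and the LGR bars lose LGR5.

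The order of levels also changed. In the DMSO libraries PTK7 led, followed by ROR2, RYK, LGR4, LGR5, LRP6, LRP5, ROR1, RSPO3 and LGR6, and no neighbors in that order had overlapping ranges, although ROR2 exceeded RYK, and LRP5 exceeded ROR1, by less than their own SD of 7.95 and 0.746 FPKM. With IWP2 the order was PTK7, RYK, LRP5, LGR4, ROR2, LRP6, ROR1, LGR6, LGR5 and RSPO3. There ROR2 and LRP6 overlapped, and LGR6, LGR5 and RSPO3 could not be separated.

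The ligands of these receptors moved as well. WNT5A, the ligand best known for ROR2, was at 60.1 and 82.4 FPKM in the DMSO libraries and at 2.45 and 2.82 FPKM in the IWP2 libraries (log2 fold change -4.30, adjusted p = 0.000624). WNT5B went from 83.2 and 70.9 FPKM to 10.1 and 9.67 FPKM (adjusted p = 0.000526). WNT2B rose from 0.709 and 0.605 FPKM to 6.21 and 3.77 FPKM (adjusted p = 0.0117). WNT3, a ligand needed for the primitive streak in the mouse, was at 8.38 and 8.19 FPKM against 3.41 and 3.78 FPKM with IWP2 (adjusted p = 0.00957). Of 19 Wnt ligand genes, 9 were tested, 4 were called lower and 2 higher, against 13.2% called over all genes tested. The list is short and was chosen with earlier results known, so the count is descriptive.

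All 10 Frizzled genes were tested, of which 3 were called lower and 1 higher, with a median log2 fold change of -0.215. The share called over all genes tested was 13.2%, and this list too is short and its count descriptive. FZD7 had a log2 fold change of -2.21, FZD8 of -1.06 and FZD5 of 1.54, so partners of the LRP proteins were called in both directions. Of 17 tested regulators of the LRP co-receptors, 2 were called lower and 1 higher, against 13.2% called over all genes tested, so the count does not set this list apart. DKK1, a secreted antagonist that binds LRP5 and LRP6, went from 30.1 and 25.4 FPKM to 0.20 and 0.919 FPKM (log2 fold change -4.24, adjusted p = 0.00149). DKK4, another antagonist of this family, was at 1.99 and 1.34 FPKM in the DMSO libraries and listed at 0 in both IWP2 libraries. LRP4, a relative that binds the LRP antagonist sclerostin, rose from 18.8 and 15.8 FPKM to 28.4 and 31.9 FPKM (adjusted p = 0.0206). KREMEN1 and KREMEN2, receptors of DKK1, did not pass, with log2 fold changes of 0.25 and 0.63.

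Of 18 planar polarity genes tested, DAAM1, a formin downstream of Dishevelled, was called lower (log2 fold change -1.60) and CELSR2, an atypical cadherin, higher (0.86), and the median was -0.163. These 2 calls are a share near the 13.2% called over all genes tested. Among 8 tested relatives of the LDL receptor, VLDLR was called higher (1.39) and LRP10 lower (-0.94), and so few genes do not set the list apart from that share. A list of Wnt feedback and target genes had 10 of 13 called lower and 1 higher, with a median of -1.16. This list includes T, which is also counted in the primitive streak list, and CDX1 and CDX2, all called lower. Its count is therefore not independent of the shift in identity. SP5, a transcription factor induced by Wnt, had a log2 fold change of -5.22, NKD1 of -4.12 and LEF1 of -3.14. AXIN2, a common readout of β-catenin activity, was at 14.2 and 15.2 FPKM in the DMSO libraries and at 6.45 and 5.58 FPKM in the IWP2 libraries, a log2 fold change of -1.16 against -4.54 for LGR5.

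**Figure D4:**
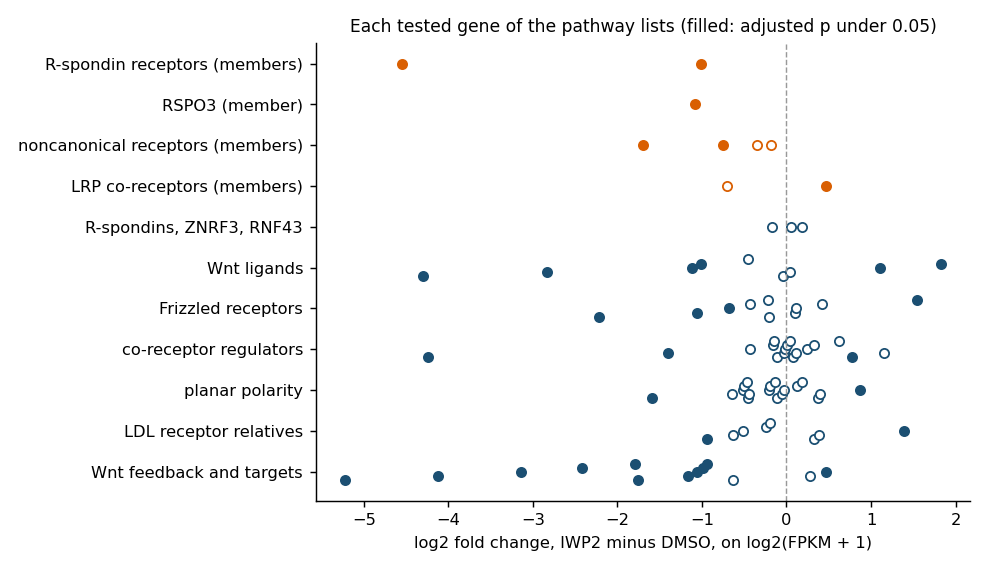
Log2 fold change, IWP2 minus DMSO, on log2(FPKM + 1) of each tested gene of the pathway lists, the members in orange, with filled points at an adjusted p under 0.05. LGR5 at -4.54 lies above SP5 at -5.22 and below WNT5A, DKK1 and NKD1 (-4.30, -4.24 and -4.12). The LRP co-receptors lie on both sides of 0. The scale compresses low values: in FPKM, LGR5 fell by a factor of 271, against 135 for SP5 and 27.0, 49.6 and 27.8 for WNT5A, DKK1 and NKD1.

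The genes with the most similar level and change were found by the root mean square difference of log2(FPKM + 1) over the 4 libraries. For LGR5 these were PRAC1 (difference 0.131, 23.7 and 25.2 FPKM in the DMSO libraries and listed at 0 in both IWP2 libraries) and GSC (0.215, 18.8 and 31.4 FPKM against 0.118 and 0.368 FPKM). For LRP5, the only member that rose, they were TTI1 (0.0584) and RMND5A (0.0769). With 4 libraries in 2 groups, many genes share such a pattern.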

How the data were processed

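Total RNA of H1 cells was sequenced in 2 DMSO and 2 IWP2 libraries with an unstranded Illumina TruSeq kit. The deposited table holds 1 FPKM value per gene and library, made by the authors and not log transformed. The labels name BWA, Bowtie and RSEM, without versions or roles, and the build hg19, yet 99.8% of rows with the same versioned ID lie at the GRCh38 position of GENCODE v29, so coordinates are given on GRCh38. Read counts were not used here. Values of genes with 1 transcript move in steps that put depth at about 20100000, 17900000, 22100000 and 19200000 fragments (DMSO 1 and 2, IWP2 1 and 2, numbered as in the column headers), and fragments behind a value were estimated from its longest GENCODE v29 transcript. Such estimates and their intervals cover counting error only.

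Genes with a mean of at least 0.5 FPKM over the 4 libraries were fitted with limma 3.58.1 (R 4.3.3, prior variance with trend) on log2(FPKM + 1) with group as the only term, and p-values were Benjamini-Hochberg adjusted over all 15980 genes. Pathway genes were named by rule: the 3 called genes of each list with the largest change, plus direct ligand, antagonist or ligase partners of the members and AXIN2. The members and lists were chosen with earlier results of these data known. Alternatives were other pseudocounts, filters, scalings and variance models, a replicate block, and leaving out each library.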

Additional observations from a re-analysis of the deposited data

How the results depend on the processing

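None of the 9 members tested changed direction under any of the 13 alternative settings that gave it a value. RSPO3 had no value at a minimum mean of 1 FPKM, and LGR6 was not tested. With no filter on low values, the genes called fell from 2104 to 381 (263 lower, 118 higher) and the members called lower from 5 to 2. Leaving out 1 library, where the lone library of a group is assumed to vary like the other group, gave 94 to 696 genes called, 76 to 410 lower and 18 to 286 higher, with 1 to 3 members lower. The count of members called higher, LRP5 alone, became 0 in those 5 settings, after scaling to TPM, with limma without the trend and in the fit with a replicate block. In the replicate block 1901 genes were called, LRP5 had an adjusted p of 0.0668 and LRP6 of 0.0265, and it changed no other member's call. Replicate 1 of both groups deviated together weakly (r = 0.142 across 15980 genes, which are not independent), and with 2 pairs the shared numbers do not show that the libraries were paired. Depth limits LGR6 and the IWP2 values of LGR5 and RSPO3, each from about 2.9 to 10.7 fragments.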
